A study of Canis lupus familiaris with 51 samples.

Results

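Canine cutaneous mast cell tumors (MCTs) of boxers and Labrador retrievers were compared by differentiation class, across all genes on the array and with breed as a covariate. Membership followed from the breed label and from the class given to each tumor, and 18 of the 51 arrays of the series met it. Of these, 4 tumors were undifferentiated, namely T114 and T115 from boxers and T73 and T80 from Labrador retrievers. The other 14 were differentiated, with 7 tumors from each breed. Each array held the RNA of 1 tumor, and the breed, sex and age labels described the dog it came from.

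The series profiled cutaneous MCTs on 1-color Agilent canine arrays to find genes that separate undifferentiated from differentiated tumors. The 2 undifferentiated boxers were males of 6 and 8 years, and the 7 differentiated boxers were 6 females and 1 male of 3 to 11 years. The undifferentiated Labradors were a female of 9 years and a male of 6 years, and the 7 differentiated Labradors were 5 females and 2 males of 6 to 10 years. All were spontaneous tumors, with no treatment or genotype given in the labels, and each sample was a piece from the middle of the tumor taken at surgery, which could hold stroma, vessels and infiltrating leukocytes beside the tumor cells.

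The class of a tumor had 2 different sources, and this bears on every value that follows. Histology gave the class of 6 tumors (T73 among the undifferentiated ones, and T84, T88, T112, T130 and T101 among the differentiated ones). The study chose these by histological grade and by mitotic index, so the amount of cell division entered their class too. For the other 12, the study had predicted the class from 13 panel genes measured on these same arrays, and this includes T80, T114 and T115. Class differences of the panel genes were therefore fixed in part by the way the samples were chosen. Genes that vary together with the panel are touched by the same choice, so the class tests are not independent of it. The contrast of the class difference between breeds was not used in choosing the samples.

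Mast cells arise from bone marrow progenitors and mature in tissue, where they carry the receptor tyrosine kinase KIT, the high-affinity IgE receptor and granules filled with proteases, histamine and heparin. Tumors of this lineage are among the most common skin tumors of dogs, and boxers and Labradors are breeds in which they are often seen. Poorly differentiated MCTs show few granules and many mitoses, and a dividing cell needs licensed replication origins, the replicative helicase, a supply of deoxynucleotides and a mitotic spindle.

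The probes behind the largest class differences are shown first, because a pair of them appear to join exons and another pair read the same gene at 2 places. The chromosome positions are those in the scanner files, which do not name the genome build, and all probes are 60 bases long. Capitals mark a stop triplet at the 3′ end of the probe.
MMP3, chr5:31966556-31966615, plus strand: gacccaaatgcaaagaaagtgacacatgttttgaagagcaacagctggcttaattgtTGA
UCHL1, chr3:74228840-74229837, minus strand: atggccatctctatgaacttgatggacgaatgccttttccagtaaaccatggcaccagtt
CDC6, chr9:25632282-25632341, minus strand: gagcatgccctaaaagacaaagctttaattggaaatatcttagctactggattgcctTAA
CDC6, chr9:25642603-25642662, minus strand: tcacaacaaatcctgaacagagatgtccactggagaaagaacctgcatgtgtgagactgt
CDC45, chr26:32777983-32780405, minus strand: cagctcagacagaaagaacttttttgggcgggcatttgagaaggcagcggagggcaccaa
The spans given for UCHL1 and CDC45 are longer than the probe, which is how a probe that joins exons appears in genome coordinates. The 2 CDC6 probes lie apart in the gene and gave class differences of 2.91 and 2.96 on the log2 scale.

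Undifferentiated tumors of both breeds had higher signals for genes of DNA replication and mitosis, for the matrix protease MMP3, for UCHL1 and for the neutrophil receptor gene CSF3R. Few genes were lower, among them ZNF677, SPATA7, TXNIP and LONRF1. Calls needed a change of 2-fold or more together with an adjusted p below 0.01, and all differences are log2 values, undifferentiated minus differentiated. Over 43603 probes limma made 116 calls, which is 0.266% of those tested. Of these calls 87.9% were higher in undifferentiated tumors (0.234% of all probes) and the other 14 were lower (0.0321%), and the median size of the called differences was 1.5. The called probes carried 55 gene symbols on the higher side and 6 on the lower side.

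The called differences had the same sign in boxers and in Labradors at 116 of 116 probes, and 97 of them were at least 2-fold in each breed. At 110 of the 116, both undifferentiated tumors lay beyond all 7 differentiated ones in each breed on its own, which held for 1.86% of all probes. At 100 of the 116, all 4 undifferentiated tumors lay beyond all 14 differentiated ones, against 1.24% of all probes. These counts describe the called probes and support nothing further, because the probes were called on these same tumors, 6 of them are panel probes, and the panel set the class of 12 tumors.

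**Figure D1:**
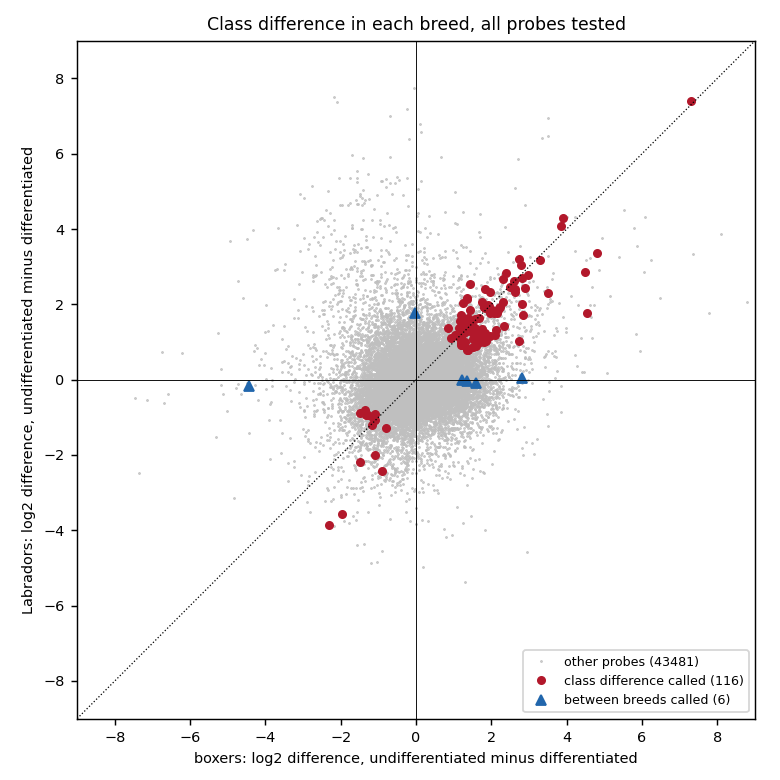
The log2 class difference in boxers (horizontal axis) is plotted against that in Labradors (vertical axis) for all probes tested, 1 point per probe. The 116 called probes lie in the upper right and lower left quadrants, and the 6 probes whose difference differed between the breeds lie off the diagonal.

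The count of calls depended on covariates and on single tumors. It fell to 5 with sex as a covariate, to 6 with scan session as a block, to 43 with slide as a random block and to 3 without T114, and no probe was called by limma in the 3 undifferentiated and 3 differentiated males (4229 probes at an unadjusted p under 0.05) or in the 6 tumors classed by histology (3693 probes), where the undifferentiated arm is T73 alone. Within the scan session of T73, T80 and T83 the higher called probes had a median difference of 1.71, within that of T114, T115 and T130 one of 1.76, and among males one of 1.71, with T73 and T83 female and T80 male in the first. With sex as a covariate the median of the higher called probes was 1.54, against 1.53 in the main fit. These values describe probes that were called on these same tumors, so their sign was largely fixed by the calls. Sex went with class in the boxers, as both undifferentiated boxers and 1 of 7 differentiated ones were male, and the part of sex in the calls was not tested further. The Y-linked gene JARID1D was between 9.29 and 11.09 in the 6 males and between 5.90 and 7.49 in the 12 females, in keeping with the sex labels.

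**Figure D2:**
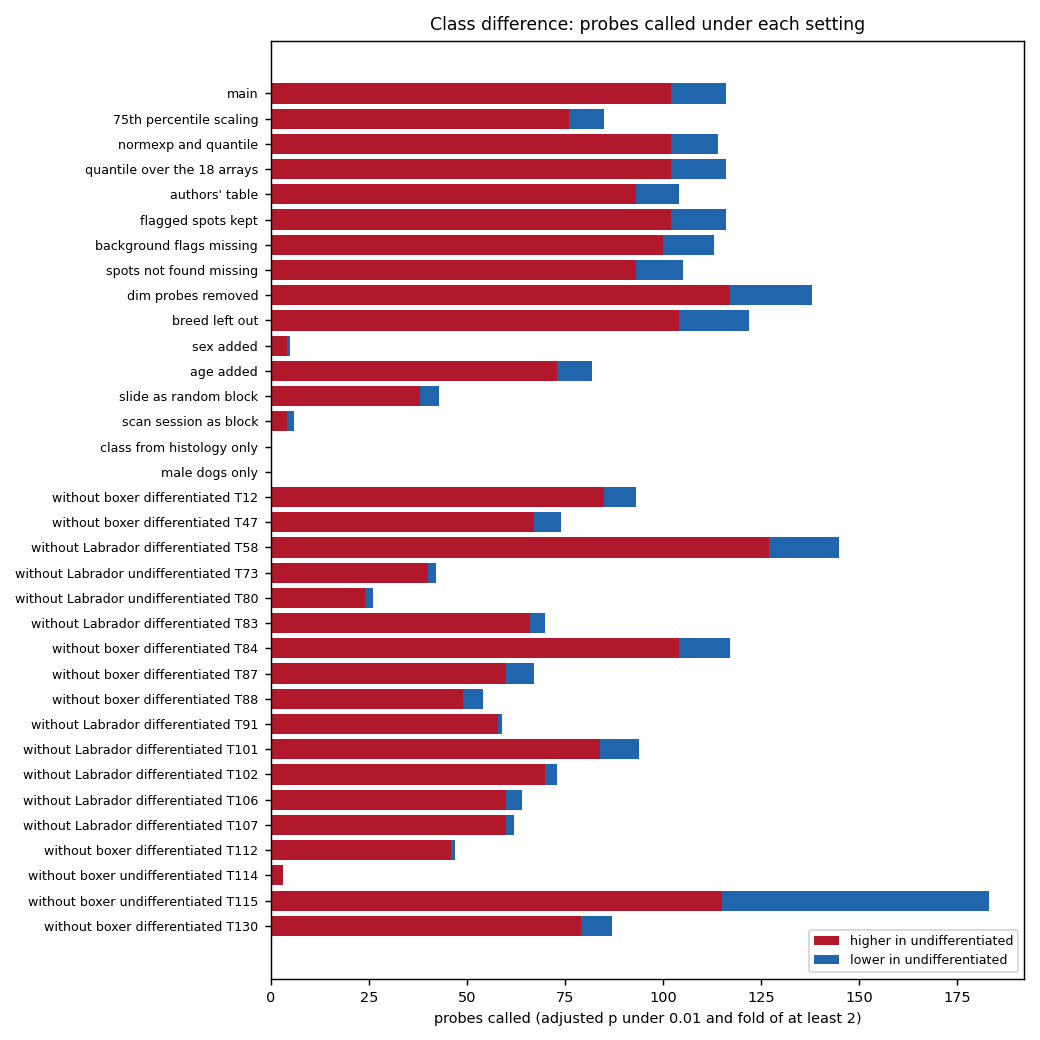
The number of probes called for the class difference (horizontal axis) is drawn as a bar from 0 for each setting of the analysis (vertical axis), split into probes higher and lower in undifferentiated tumors. The bars run from 0 with histology-classed tumors or males only to 183 without T115.

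The largest difference was that of MMP3, stromelysin-1, a secreted protease that cleaves matrix proteins and activates other metalloproteases. Its level was 15.24 in T114, 4.13 in T115, 9.91 in T73 and 9.53 in T80. In differentiated boxers it ran from 1.77 over a median of 1.84 to 3.78, and in differentiated Labradors from 1.78 over a median of 1.80 to 4.58. Genes of the largest class differences were named only if their groups did not overlap within either breed. Separation within a breed was thus fixed by that rule, for MMP3 and for the others named by it. Across breeds, T115 was below the differentiated Labrador T106 for MMP3. The difference was 7.36 ± 1.19 (SE, adjusted p = 0.00667, limma), 7.31 in boxers and 7.41 in Labradors. It was 3.80 with normexp background correction (adjusted p = 0.0204, limma), which missed the limits. The SD of MMP3 was 4.54 in undifferentiated and 0.911 in differentiated tumors, while the fit took the same spread for both. With the wider spread in the smaller class, the SE and p-value are likely too small. Only 2 of the 14 differentiated arrays, T87 and T106, had the probe well above background. In the 31 tumors of other breeds and crossbreds the level ran from 1.68 to 14.06 with a median of 1.82.

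UCHL1 encodes a deubiquitinating enzyme best known from neurons. It was at 9.41 in T114, 7.85 in T115, 10.08 in T73 and 6.80 in T80. Differentiated boxers ran from 3.30 over a median of 4.75 to 5.83, and differentiated Labradors from 2.06 over a median of 4.88 to 5.25. All 4 undifferentiated tumors were above all 14 others, and the difference was 4.09 ± 0.664 (SE, adjusted p = 0.00698, limma). A second UCHL1 probe gave 2.61 (adjusted p = 0.00491, limma), and it was the only probe with a gene symbol still called with sex as a covariate (3.18, adjusted p = 0.00178, limma).

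CSF3R encodes the receptor for granulocyte colony-stimulating factor and is used by neutrophils and their precursors. It was at 11.64 in T114, 8.81 in T115, 6.99 in T73 and 6.79 in T80. The differentiated boxers ran from 4.43 over a median of 6.10 to 6.72, and the differentiated Labradors from 4.61 over a median of 5.10 to 5.56. The undifferentiated boxers were well above the rest, while the undifferentiated Labradors were close to the highest differentiated boxer. The difference was 3.16 ± 0.562 (SE, adjusted p = 0.00961, limma), and its values of 4.55 in boxers and 1.76 in Labradors did not differ past the limits (adjusted p = 0.531, limma). As for MMP3, the spread was wider in undifferentiated tumors (SD 2.25 against 0.739), so the SE and p-value are likely too small. CSF3R kept its call under 5 of 34 alternatives, and missed it with 75th percentile scaling (adjusted p = 0.0115, limma), normexp (1.92, adjusted p = 0.0151, limma) and slide as a random block (adjusted p = 0.058, limma).

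**Figure D3:**
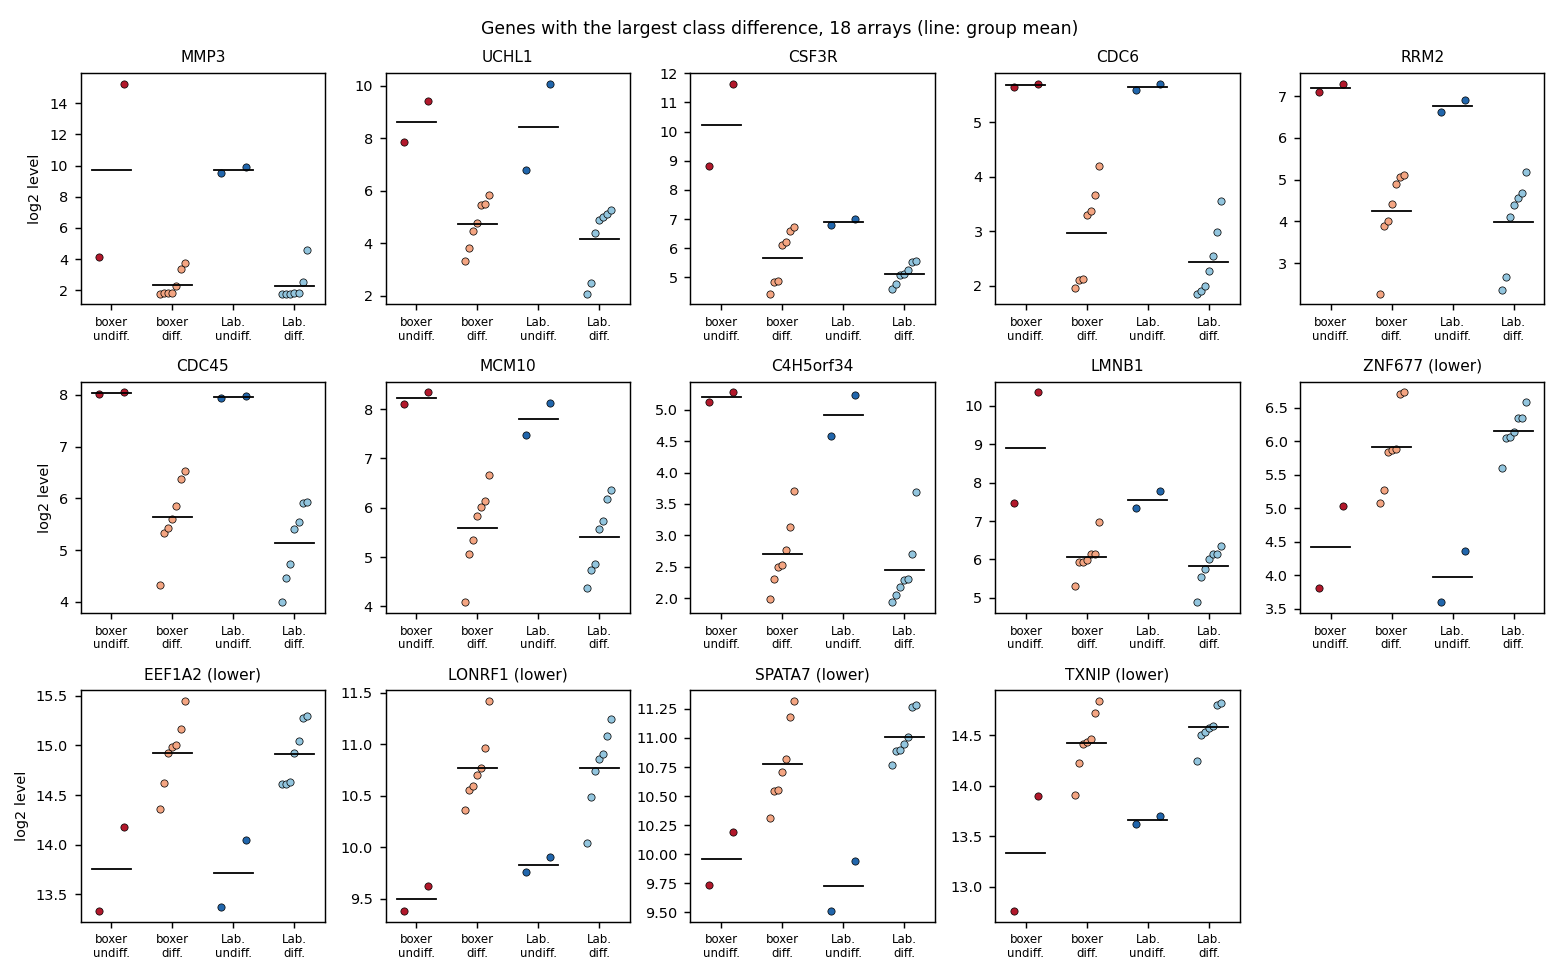
The log2 level of 14 genes called for class, 9 higher and 5 lower in undifferentiated tumors (vertical axis), is shown for each of the 18 tumors in the 4 groups of breed and class (horizontal axis), with a line at the group mean. Within each breed the undifferentiated tumors lie above the differentiated ones for MMP3, UCHL1, CSF3R, CDC6 and CDC45, which the rule for naming these genes required. T114 stands highest for MMP3 at 15.24.

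Genes that prepare and fire replication origins were higher in the undifferentiated tumors. CDC6, which loads the replicative helicase onto origins, was at 5.71, 5.65, 5.59 and 5.71 in T114, T115, T73 and T80. Differentiated boxers ran from 1.96 over a median of 3.30 to 4.20 and differentiated Labradors from 1.85 over a median of 2.27 to 3.55. All 4 undifferentiated tumors were above all 14 differentiated ones, of which 1 array had this probe well above background. The difference was 2.96 ± 0.381 (SE, adjusted p = 0.00238, limma), but 0.55 with normexp, under the fold limit.

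CDC45, a subunit of the active helicase, behaved alike. It was at 8.05, 8.02, 7.94 and 7.97 in T114, T115, T73 and T80, against 4.33 to 6.52 (median 5.60) in differentiated boxers and 3.99 to 5.93 (median 5.40) in differentiated Labradors. No differentiated tumor reached the undifferentiated ones, and the difference was 2.61 ± 0.366 (SE, adjusted p = 0.00321, limma). MCM10, which helps to start the helicase, was at 7.47 to 8.34 in undifferentiated and at 4.08 to 6.67 in differentiated tumors, a difference of 2.51 ± 0.397 (SE, adjusted p = 0.00584, limma).

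RRM2, the small subunit of ribonucleotide reductase, supplies deoxynucleotides for DNA synthesis. It was at 7.30, 7.11, 6.91 and 6.63 in T114, T115, T73 and T80, against 2.26 to 5.12 in differentiated boxers and 2.35 to 5.18 in differentiated Labradors. The difference was 2.88 ± 0.503 (SE, adjusted p = 0.00878, limma). LMNB1, a protein of the nuclear lamina, was at 10.35 in T114 and between 7.33 and 7.77 in the other undifferentiated tumors, against 4.88 to 6.97 in differentiated ones, a difference of 2.28 ± 0.401 (SE, adjusted p = 0.00919, limma). The SD of LMNB1 was 1.42 in undifferentiated and 0.488 in differentiated tumors, so this SE and p-value are likely too small as well. C4H5orf34 was well above background on all 4 undifferentiated arrays (4.58 to 5.28) and on no differentiated array, so it is given as at least 2.06-fold higher. The bound was not tested, and the call rested on the log2 difference of 2.48 taken without it (adjusted p = 0.00185, limma). With normexp the log2 difference was 0.38, which is under that bound, so the bound holds for the main processing only.

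Read as a list, replication genes had 38 of 41 measured members higher and 3 lower in undifferentiated tumors, with 9 called higher and none lower. Their median difference was 0.73 in the pooled fit, 0.75 in boxers and 0.71 in Labradors. For comparison, 5949 of all 11714 named genes were higher by their brightest probe, with a median of 0.01, and 45 (0.384%) were called higher and 5 (0.0427%) lower. The called members were CDC45, CDC6, MCM10, RRM2, UHRF1, MCM3, POLE, PCNA and CHAF1B. UHRF1, which helps to copy DNA methylation onto new strands, was higher by 1.37 ± 0.205 (SE, adjusted p = 0.00478, limma), with undifferentiated tumors at 9.01 to 9.45 and differentiated ones at 7.31 to 8.55.

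Mitosis genes had 43 of 46 measured members higher and 3 lower, with 7 called higher and none lower. Their median was 1.30, and it was 1.38 in boxers and 1.26 in Labradors. SPC25, a kinetochore subunit, was at 10.39, 10.54, 11.98 and 10.22 in T114, T115, T73 and T80. It ran from 8.20 to 9.18 in differentiated boxers and from 7.45 to 9.62 in differentiated Labradors, a difference of 2.15 ± 0.327 (SE, adjusted p = 0.00491, limma). AURKA, a spindle pole kinase, was higher by 1.5 ± 0.231 (SE, adjusted p = 0.00511, limma) and KIFC1, a minus-end kinesin, by 1.36 ± 0.210 (SE, adjusted p = 0.00526, limma). KIF15, PLK1, TTK and PBK were the other members called, at 2.01, 1.05, 2.12 and 2.19.

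The mean level over the mitosis genes was 8.62 in T114, 8.42 in T115, 8.40 in T73 and 8.11 in T80. The differentiated boxers lay between 6.57 and 7.72 and the differentiated Labradors between 6.27 and 7.77, with T84 and T58 the highest of their groups. For the replication genes the undifferentiated tumors lay between 8.99 and 9.35 and the differentiated ones between 7.75 and 8.64. The groups did not overlap in either list, and T84 was the highest differentiated tumor for the replication genes. The panel that gave 12 of the 18 classes was rich in genes of the cell cycle. The classes from histology rested in part on mitotic index. This separation is therefore a description of how the classes differ and not independent evidence of its direction.

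Cyclins, cyclin-dependent kinases and their regulators had a median difference of 0.52, with 21 of 27 measured members higher, 6 lower and none called by their brightest probe. CCNA2, cyclin A2, had a difference of 2.50 (adjusted p = 0.0164, limma) and CCND3, cyclin D3, of 1.05 (adjusted p = 0.0329, limma). CCNE1, cyclin E1, which drives entry into S phase, was called by another probe at 1.5, while its brightest probe gave 1.25 (adjusted p = 0.0164, limma).

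The panel genes are given as a description with no test, because they chose the class of most tumors. Of the 13, 12 were measured under their symbols, 11 were higher and 1 lower by their brightest probe, and the median was 1.55. FEN1, a nuclease that trims Okazaki fragments, was at 11.97 to 12.68 in undifferentiated tumors and at 10.60 to 11.49 in differentiated ones. CENPP, a centromere protein, was at 10.18 to 10.53 against 8.09 to 9.64. CDCA8 was the least separated of the higher panel genes, at 7.60 to 7.78 against 6.34 to 7.93, and GSN, gelsolin, was the lower one, at 16.21 to 17.73 against 17.10 to 18.09.

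Of the genes lower in undifferentiated tumors, 5 met the rule for being named. ZNF677, a zinc finger gene, was at 3.80, 5.03, 3.59 and 4.36 in T114, T115, T73 and T80, against 5.07 to 6.73 in differentiated boxers and 5.60 to 6.58 in differentiated Labradors. T115 was only just below the lowest differentiated boxer, and 2 of the 4 undifferentiated arrays had the probe well above background. The difference was -1.84 ± 0.298 (SE, adjusted p = 0.00692, limma).

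TXNIP, which binds thioredoxin and restrains glucose uptake, was at 12.76, 13.90, 13.70 and 13.62 in T114, T115, T73 and T80. The differentiated tumors ran from 13.91 to 14.84 in boxers and from 14.24 to 14.82 in Labradors, so that T115 and the lowest boxer nearly touched. The difference was -1.01 ± 0.178 (SE, adjusted p = 0.00919, limma). LONRF1, a RING finger protein, was lower by a difference of -1.10 ± 0.194 (SE, adjusted p = 0.00919, limma), and SPATA7, a protein of cilia and photoreceptors, by one of -1.05 ± 0.173 (SE, adjusted p = 0.00705, limma). Of 34 alternatives, TXNIP kept its call under 10, LONRF1 under 8, SPATA7 under 16 and ZNF677 under 19. A probe that the files name EEF1A2 had a difference of -1.19 ± 0.200 (SE, adjusted p = 0.00773, limma), but its description names the near-identical elongation factor gene EEF1A1, so which of the pair it reads is uncertain.

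Mast cell genes tended to have lower values in undifferentiated tumors without passing the limits. Of 25 measured genes of the mast cell list 22 were lower and 3 higher, the median was -0.56, and none was called by limma. The median was 0.93, of the opposite sign, in the tumors classed by histology and -1.22 in males. KIT was at 10.99, 13.28, 13.37 and 12.17 in T114, T115, T73 and T80, against 12.43 to 14.31 in differentiated boxers and 13.04 to 13.86 in differentiated Labradors. T114 and T80 were below all differentiated tumors and T115 and T73 among them, a difference of -0.93 ± 0.361 (SE, adjusted p = 0.190, limma).

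The same pair of tumors stood low for the IgE receptor and the granule proteases. FCER1A, its alpha chain, was at 14.63 in T114 and 15.10 in T80 but at 16.08 in T115 and 17.07 in T73, against 16.05 to 17.37 in differentiated tumors (difference -1.05, adjusted p = 0.0927, limma). MS4A2, the beta chain, was at 13.89 and 14.31 in T114 and T80 and at 15.39 and 16.29 in T115 and T73, with differentiated tumors at 14.81 to 16.58 (difference -0.78, adjusted p = 0.344, limma). Chymase, CMA1, was at 14.65 and 15.63 in T114 and T80 and at 15.79 or more in all differentiated tumors, and differed by -0.49 (adjusted p = 0.616, limma) and the tryptase LOC100049001 by -0.76 (adjusted p = 0.211, limma). SLC18A2, which fills granules with monoamines, differed by -1.47 (adjusted p = 0.0914, limma), and SRGN, serglycin, the core of granule proteoglycans, by 0.71 (adjusted p = 0.100, limma). CPA3, TPSAB1 and HDC were not matched to a probe by symbol.

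All 18 arrays had KIT, FCER1A, MS4A2 and CMA1 well above background, and CMA1 was at 14.65 or more on each, so the mast cell label was borne by its defining genes in both classes. In bulk tissue, fewer cells of a type and less RNA per cell cannot be told apart. The mean level over the mast cell genes was 11.17 in T114, 12.42 in T115, 13.08 in T73 and 11.78 in T80, against 11.80 to 12.97 in differentiated boxers and 12.30 to 13.10 in differentiated Labradors. T73 was close to the highest and T114 the lowest of the 18. The median of the list ran from -0.94 without T73 to -0.42 without T114.

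Granulocyte markers were mostly higher in undifferentiated tumors. Of the 11 genes measured, higher values were found for 9 and lower ones for 2. The median was 1.03, and CSF3R was the 1 member called. CXCR2, a neutrophil chemokine receptor, had a difference of 2.32 (adjusted p = 0.0191, limma). The mean level over the list was 9.42 to 10.43 in undifferentiated tumors, 7.10 to 9.18 in differentiated boxers and 7.41 to 8.76 in differentiated Labradors, so the groups did not overlap. The gap was narrow, with T115 at 9.42 and T87 at 9.18. Cyclins and their regulators did not overlap either, at 8.60 to 8.81 in undifferentiated and 7.57 to 8.34 in differentiated tumors. The other cell type lists overlapped. Granulocyte markers thus moved with the class beside the genes of replication and mitosis, and their part in those differences was not tested.

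Macrophage and dendritic cell markers had 13 of 23 measured genes higher and a median of 0.35. CD14, the lipopolysaccharide co-receptor of monocytes and macrophages, was the 1 called. It was at 12.05, 11.56, 10.16 and 11.29 in T114, T115, T73 and T80, and between 8.70 and 9.92 in differentiated tumors, a difference of 1.88 ± 0.253 (SE, adjusted p = 0.0029, limma). MARCO, a scavenger receptor, differed by 3.69 (adjusted p = 0.0183, limma), with T115 at 9.89 and T73 at 4.03. SELE, E-selectin of activated endothelium, was called by 1 probe at 1.96 (adjusted p = 0.00584, limma), while its brighter probe gave 3.38 (adjusted p = 0.0395, limma).

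No member of the other cell type lists was called by its brightest probe. The medians were 0.18 for endothelium (19 genes), 0.06 for fibroblasts and matrix (42 genes), -0.09 for smooth muscle (9 genes), 0.38 for skeletal muscle (13 genes), -0.36 for adipocytes (9 genes), 0.05 for T and NK cells (20 genes), -0.48 for B and plasma cells (8 genes) and 0.13 for MHC class II presentation (11 genes). Interferon-stimulated genes had a median of 0.05 (23 genes) and glycolysis genes of 0.22 (18 genes), where ENO1, enolase 1, differed by 0.91 (adjusted p = 0.0151, limma).

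Keratinocyte genes varied most within the classes. Their mean level was 12.15 in T114 but 5.91 in T115, 11.39 in T73 and 13.23 in T80, and it ran from 4.72 to 13.78 in differentiated boxers and from 4.87 to 12.58 in differentiated Labradors. Their median class difference was -1.58 in boxers and 4.54 in Labradors. KRT5, a keratin of the basal epidermis, was at 17.21 in T114 and 8.86 in T115, and spanned 2.50 to 17.75 among the differentiated tumors. The amount of epidermis in a sample thus differed widely among tumors of 1 class, and its part in the breed differences was not tested.

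**Figure D4:**
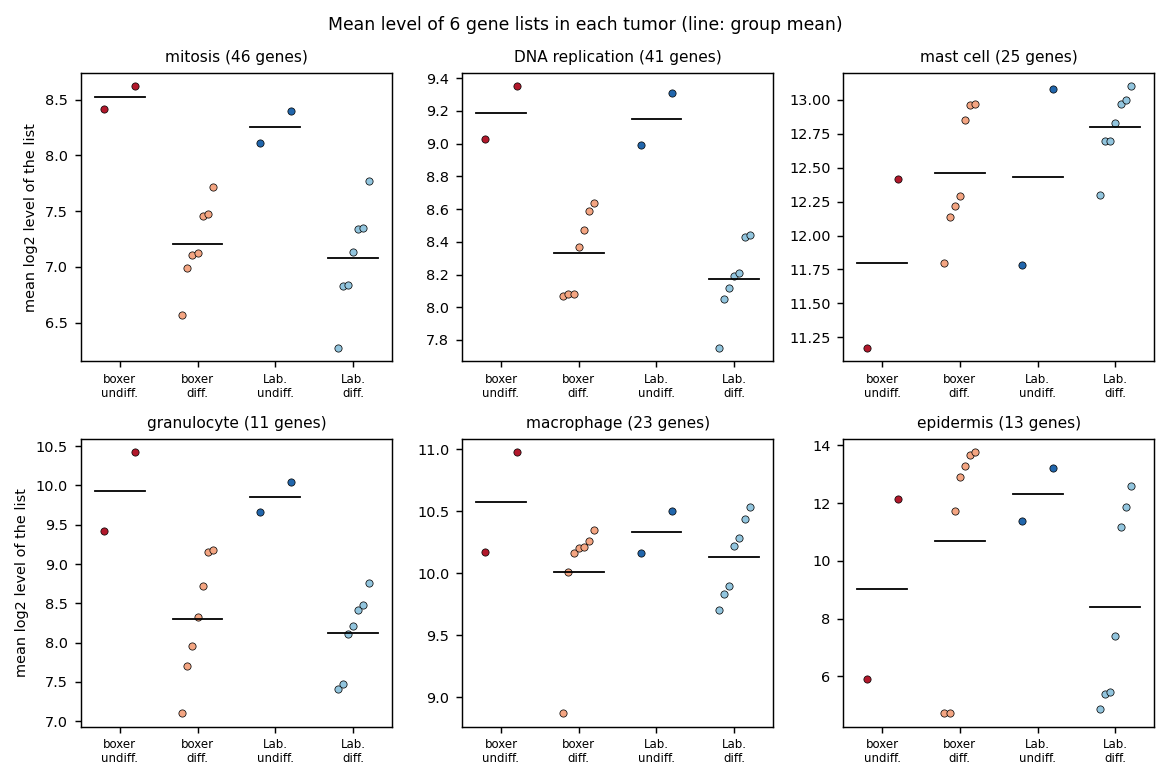
The mean log2 level over the genes of 6 lists (vertical axis) is shown for each of the 18 tumors in the 4 groups of breed and class (horizontal axis), with a line at the group mean. Undifferentiated tumors lie above all differentiated ones for the mitosis genes (8.11 to 8.62 against 6.27 to 7.77), while the mast cell and keratinocyte lists overlap.

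Taken within each breed, the class difference rested on 2 undifferentiated tumors against 7. In boxers 50 probes were called by limma (0.115%), 46 higher and 4 lower, and in Labradors 11 (0.0252%), 6 higher and 5 lower. With scan session as a block the balance turned, to 8 higher and 62 lower in boxers and 7 higher and 61 lower in Labradors, and without T80 the Labrador calls were 206 higher and 19 lower. With session as the block, the undifferentiated boxers were set against T130 alone and the undifferentiated Labradors against T83 alone. Each breed's class difference in that fit thus rested on 1 differentiated tumor. Of the 116 probes called in the joint fit, 13 were also called in boxers and 3 in Labradors. A pair of probes was called in both breeds, and neither has a gene symbol. The first, named BU749178 in the files, was well above background on all 18 arrays and differed by 1.39 in boxers and 1.60 in Labradors. The second was well above background on 2 of 18 arrays, both undifferentiated, so it is given as at least 1.1-fold higher over both breeds. Its calls rested on values of 2.21 in boxers and 1.89 in Labradors, taken without that bound. With sex as a covariate 11 probes were called in boxers and 7 in Labradors, and with 75th percentile scaling 7 and 4. Of the probes called in a single breed, 22 of 50 and 5 of 11 were well above background on fewer than 4 of the 18 arrays.

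The genes called in boxers included CSF3R (4.55), CD14 (2.33), the platelet chemokine gene PPBP (4.27 and 3.84 at 2 probes), SOCS3 (2.54), an inhibitor of cytokine signaling, and FTH1 (1.03 and 1.02 at 2 probes), the ferritin heavy chain. Their values in Labradors were 1.76, 1.43, 0.37 and -0.18, -0.29, and 0.28 and 0.27. In Labradors the called probes with symbols were CSN2 (1.89), FAM13A (-1.16), ARV1 (-3.73) and MYLK3 (-4.84), with -0.10, 0.16, 0.15 and -1.03 in boxers. These genes were chosen after their values were seen. The 2 PPBP probes were well above background on 4 and 2 of the 18 arrays, the CSN2 probe on 2, and the others on 15 or more. An effect past the limits in 1 breed is not shown to differ from the other breed, and that difference was tested on its own.

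Between the breeds, the class difference differed at 6 probes (0.0138%), with 2 higher and 4 lower in Labradors (limma, 3120 probes at an unadjusted p under 0.05). One of the 6 has a gene symbol, PAPPA2, a protease of insulin-like growth factor binding proteins. PAPPA2 was at 3.13 in T114 and 3.09 in T115, at 1.73 in T73 and 1.69 in T80, at 1.70 to 2.02 in differentiated boxers and at 1.69 to 1.93 in differentiated Labradors. The undifferentiated boxers stood apart from all others, and the difference, Labrador minus boxer, was -1.38 ± 0.151 (SE, adjusted p = 0.00112, limma). None of the 18 arrays had this probe well above background, and another PAPPA2 probe, well above background on 16 of them, gave -2.0 (adjusted p = 0.648, limma).

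The probes CO685296, CO634263 and CF412380, named by sequence records, showed the same pattern as PAPPA2. Their values were -1.67 (adjusted p = 3e-04, limma), -1.24 (adjusted p = 0.00033, limma) and -2.78 (adjusted p = 2.27e-05, limma), and they were well above background on 0, 0 and 2 of the 18 arrays. T114 and T115 lay on the same slide, and a tumor of another breed on that slide, T121, was raised too. T121 was at 2.86 for PAPPA2, 2.71 for CO685296, 2.41 for CO634263 and 3.62 for CF412380, whereas the highest of the 16 members on other slides was 2.02, 2.14, 1.73 and 2.49. Slide and class cannot be told apart for the undifferentiated boxers. No probe was called between breeds by limma with 75th percentile scaling (2750 at an unadjusted p under 0.05), with normexp background correction (3141) or once dim probes were removed (2338).

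The remaining pair of probes ran the other way. TC55804 was at 3.28 in T73 and 3.98 in T80 and at 1.74 to 2.05 in the 16 other tumors, a difference of 1.81 (adjusted p = 0.00112, limma), with 1 of 18 arrays well above background. TC73615, at chr7:43858828-43858885, was well above background on all 18 arrays. It was at 6.44 in T114 and 5.65 in T115 and at 10.05 to 11.83 in the other 16 tumors, a difference of 4.26 ± 0.523 (SE, adjusted p = 0.00379, limma). T121 on the same slide was at 11.73.

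A probe 209 bases further along the chromosome, at chr7:43859095-43859421, showed the same low pair. The files name it WFDC2, although another WFDC2 probe lies on chromosome 24. It was at 5.75 in T114 and 4.90 in T115, against 8.10 to 9.88 in the other 16 tumors, and its difference of 3.31 missed the limits (adjusted p = 0.0428, limma). The WFDC2 probe on chromosome 24 gave -1.58 (adjusted p = 0.946, limma).

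ARV1, which takes part in sterol transport, was low in the undifferentiated Labradors at all 3 of its probes. The brightest was at 5.26 in T73 and 5.75 in T80, at 9.82 and 10.05 in T114 and T115, at 8.81 to 10.48 in differentiated boxers and at 8.78 to 10.06 in differentiated Labradors. T73 and T80 were far below the rest, and the difference between breeds of -3.88 missed the limits (adjusted p = 0.0484, limma). The other probes were at 4.33 and 3.95, and at 1.59 and 1.60, in T73 and T80. FAM13A gave -1.32 (adjusted p = 0.0735, limma) and C1H6orf58 -1.86 (adjusted p = 0.0980, limma). A second FAM13A probe gave -0.93 (adjusted p = 0.698, limma). The C1H6orf58 probe was well above background on 0 of the 18 arrays, and another probe of that gene gave -0.02.

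**Figure D5:**
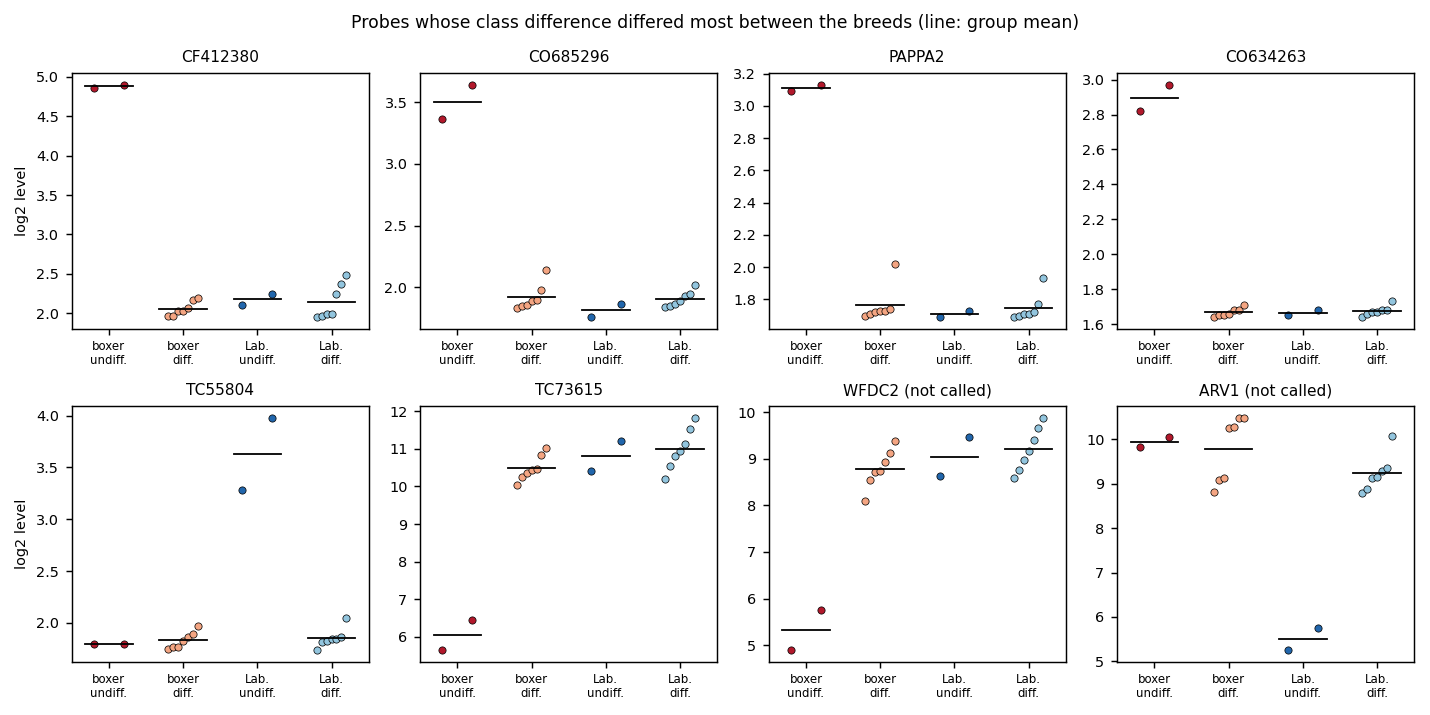
The log2 level of the probes whose class difference differed most between the breeds (vertical axis) is shown for each of the 18 tumors in the 4 groups of breed and class (horizontal axis), with a line at the group mean. TC73615 is low in the undifferentiated boxers only (6.44 and 5.65), and ARV1 is low in the undifferentiated Labradors only (5.26 and 5.75).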

How the data were processed

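RNA of 1 tumor per array was hybridized to 1-color Agilent canine arrays. The authors deposited, for each array, the scanner output with its processed signal, an intensity from which Feature Extraction had subtracted the background, and a table of linear intensities that they had quantile-normalized over the 51 arrays. The deposited signals are linear, and here their log2 values were quantile-normalized across the 51 arrays. Control spots were left out, 5 to 19 spots per member array with an outlier flag were set to missing, and spots of a probe were averaged, which left 43603 probes. Of these, 24215 had no gene symbol. No depth applies to arrays, and the number of arrays limits the precision. Between 60.6% and 73.2% of spots were well above background on the 18 arrays, which lay on 11 slides scanned in 6 sessions. Their pairwise correlations ran from 0.921 to 0.988, and no pair was identical.

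The 18 arrays were fitted with limma 3.58.1 in R 4.3.3, with class and breed as terms, and with the means of the 4 groups for the breeds apart and for the difference between them. P-values were adjusted by the Benjamini-Hochberg method over all probes, and calls needed a change of 2-fold or more and an adjusted p below 0.01, after the study's methods. P-values set each difference against the spread between these tumors that the fit left, moderated across probes. The fit took the same spread for both classes. For some probes it was wider in undifferentiated tumors, as for MMP3 (SD 4.54 against 0.911). For others it was narrower, as for CDC6 (0.0571 against 0.789). The main fit took all arrays as independent, although the correlation within a slide was 0.468. Class is not in the labels and was taken by tumor number. A bound was used where no array of a group was well above background, with the dim group set to the lowest signal well above background on each array or the probe's own level if higher. Gene lists were described by counts and medians over the brightest probe of each gene.

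Named were the 10 genes in each direction with the largest difference among called probes with both undifferentiated tumors beyond all 7 differentiated ones in each breed, up to 5 genes in each direction between breeds or those with the smallest p, the 3 genes of each list with the smallest p, chosen mast cell genes and the panel genes; not every list gene that qualified is printed. Values of some genes that met the rule are not reported here. The samples, lists and rules were chosen with earlier results of these data known. The alternatives were 75th percentile scaling, normexp with an offset of 50, normalization of the 18 arrays only, the authors' table, removal of probes well above background on fewer than 4 arrays, flagged spots kept, breed left out, sex or age added, slide as a random block, an adjusted p under 0.05, histology-classed tumors only and each tumor left out. Scan session as a block, males only, spots with flagged background missing and spots not found missing were chosen after seeing the data. The steps were tested on simulated data. The simulated arrays were independent and had the spread of the differentiated tumors in both classes. That test therefore does not cover correlation within a slide or unequal spread. Further packages were data.table (version 1.17.8), statmod 1.5.0, matplotlib 3.10.9, numpy 2.4.6 and pandas 2.3.3.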

Additional observations from a re-analysis of the deposited data

Results flagged for a closer look

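In some groups of 7 tumors 1 value lay far from the rest, with the gap to its nearest neighbor taken as a share of the group's range. MMP3 was at 4.58 in T106 against 2.55 in the next differentiated Labrador (share 0.725). RRM2 was at 2.26 in T12 against 3.89 in the next differentiated boxer (share 0.569). FCER1A was at 16.37 in T101 against 16.96 in the next differentiated Labrador (share 0.591). PAPPA2 was at 2.02 in T87 among differentiated boxers (share 0.859) and at 1.93 in T91 among differentiated Labradors (share 0.674). C1H6orf58 was at 2.75 in T88 among differentiated boxers (share 0.828). These PAPPA2 and C1H6orf58 probes were well above background on none of the 18 arrays. For independent, normally distributed values such a gap arises in about 1 in 20 groups, and here 6 of 50 groups had one. The groups reuse the same differentiated tumors and some hold probes near background, so this count cannot be set against that rate. The class difference differed between Labradors and boxers for TC73615 (4.26), CO685296 (-1.67), PAPPA2 (-1.38), CO634263 (-1.24), TC55804 (1.81) and CF412380 (-2.78).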

How the results depend on the processing

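The probes of the 20 named genes called for class, 1 per gene, kept their direction under every alternative. That direction was largely fixed, because the probes were chosen on these same tumors. With sex added, 0 of these 20 probes remained called by limma (5723 at an unadjusted p under 0.05), though the other UCHL1 probe did. None of the 20 remained called with scan session as a block, in males only or without T114. At an adjusted p under 0.05 the calls rose to 519 for class, 309 in boxers, 52 in Labradors and 12 between breeds. With 75th percentile scaling they were 7 in boxers (71.4% higher, against 92%), 4 in Labradors (25.0% higher, against 54.5%) and 0 between breeds (2750 at an unadjusted p under 0.05). That scaling moved the median of all probes in boxers from -0.03 to -0.18. With normexp they were 3 in Labradors (33.3% higher) and 0 between breeds (3141 unadjusted), 59 of the 116 class calls remained, and the list medians fell to 0.76 for mitosis and 0.44 for replication. With it 10 of the 20 named probes lost the call, those of MMP3 (3.80), CSF3R (1.92), CDC6 (0.55), RRM2 (0.84), C4H5orf34 (0.38), LMNB1 (1.33), ZNF677 (-0.53), LONRF1 (-0.99), SPATA7 (-0.92) and TXNIP (-1.0). The authors' table gave 97, 25 (80% higher) and 28 calls, and spots not found set to missing 93, 23 (78.3% higher) and 28. Removing dim probes gave 15, 5 and 0 (2338 unadjusted). Sex left 5 calls for class, 11 in boxers and 7 in Labradors, and age 7 in Labradors. Slide as a random block (correlation 0.468) left 43 for class and 10 in boxers. Scan session as a block gave 6 for class, 70 in boxers (11.4% higher), 68 in Labradors (10.3% higher), 71 between breeds and a granulocyte median of 2.69. In that fit the class difference of each breed rested on 1 differentiated tumor. Histology-classed tumors, with 1 undifferentiated, gave 0 class calls (3693 unadjusted) and a mast cell median of 0.93, and males 0 (4229 unadjusted) and -1.22. The cause of these shifts was not tested.

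Leaving out 1 tumor at a time gave 3 (T114) to 183 (T115) class calls, 20 (T47) to 772 (T115) in boxers, 5 (T91) to 225 (T80) in Labradors and 5 (T83) to 187 (T115) between breeds, where a lone tumor was assumed to vary like the other groups. The class count also moved by over 1.5 times without T73 (42), T80 (26), T112 (47), T88 (54), T91 (59), T107 (62), T106 (64), T87 (67), T83 (70), T102 (73) and T47 (74). The list medians ran from 1.22 to 1.37 for mitosis, 0.72 to 0.89 for replication, -0.94 to -0.42 for mast cells and 0.76 to 1.46 for granulocytes. No paired analysis was possible because the numbers in the labels name tumors and are not shared between groups. Probes well above background on few arrays set a limit, since 7 of the 116 class calls were dim on every differentiated array.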

Other observations

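Among the 31 tumors of other breeds and crossbreds, which belong to no comparison above, CDC6 ran from 1.84 to 6.43 (median 3.02), UCHL1 from 2.05 to 10.06 (median 5.62) and CSF3R from 3.83 to 12.76 (median 6.11). The locus on chromosome 7 read by TC73615 ran from 2.18 to 13.71 in them (median 10.47), so levels below those of T114 and T115 were also seen. The brightest ARV1 probe ran from 4.96 to 10.23 in them (median 7.96), and T121 was at 5.84. Another ARV1 probe was well above background on 29 of the 51 arrays. These are values only, with no test.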
